A study of Mus musculus with 2 samples.

Results

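The Distal-less homeobox family of the mouse, Dlx1 to Dlx6, was examined in the ac4C peak list of the whole uterus on gestational day 4. N4-acetylcytidine (ac4C) is a cytidine that carries an acetyl group, and acRIP-seq pulls down RNA fragments that hold it with an antibody. The 6 genes were taken by symbol from 21900 protein-coding genes. A gene was said to hold a peak when the summit, the highest point of the peak, lay inside its RefSeq span, introns included. By this rule 7 of the 21192 peaks in the list belonged to the family, 4 in Dlx5 and 3 in Dlx6. Dlx1, Dlx2, Dlx3 and Dlx4 held 0 peaks. The genes were thus chosen with their peaks in view, and their numbers of peaks and fold enrichments are given as a description with no test.

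The study had 2 libraries of polyA RNA. Both came from wild-type mouse uterus, taken whole on gestational day 4. The ac4C immunoprecipitation and the input control had 1 library each, so no value has a replicate check. Strain, age, and how many animals were pooled were not given in the sources used here. In RNA of a whole tissue, fewer cells of a type and less RNA per cell cannot be told apart.

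Dlx genes encode homeodomain transcription factors, proteins that bind DNA through a conserved helical domain and set regional identity in the embryo. They lie in pairs, and the genes of a pair are transcribed towards each other, so that their 3′ ends face and their starts lie at the outer ends. Dlx1 and Dlx2 are known for the making of inhibitory neurons in the forebrain, Dlx3 for skin and placenta, and Dlx5 and Dlx6 for the jaw, the limbs and the skeleton. In the uterus, Dlx5 and Dlx6 are known for a part in the forming of endometrial glands after birth. The stretch between Dlx5 and Dlx6 is known for enhancers, and the long non-coding RNA Dlx6os1, also called Evf2, is transcribed across Dlx6 in the opposite direction.

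One stretch of the family's peaks could be read as sequence from the RefSeq tables of GRCm38.p6. It is 163 bases of the highest Dlx6 peak, which overlaps the promoter window of the antisense gene Dlx6os2. It is shown because it is what the antibody-enriched region of Dlx6 looks like beside its summit, and because it is the coding sequence for the first part of the homeodomain, a reading given as background. It lies at chr6:6865101-6865263 and is written on the + strand, the strand of Dlx6, with the CNNCNNCNNC match in capitals.
Dlx6 peak 2: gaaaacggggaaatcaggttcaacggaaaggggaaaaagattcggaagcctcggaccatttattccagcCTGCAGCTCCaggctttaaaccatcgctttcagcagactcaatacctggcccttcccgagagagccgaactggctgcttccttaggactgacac

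The stretch begins 25 bases from the summit, on the side of Dlx5, and makes up 36.6% of the peak. Of the 3 reading frames on the + strand 2 held no stop codon, and on the other strand 0 of 3 were free of stops. Repeats with a C every 3 bases have been linked to ac4C, so CNNCNNCNNC was searched on both strands, overlapping matches included. The + strand held 1 match and the other strand 0. Of 32844 stretches of the same length and place in the promoter windows of all genes, 59.2% held at least 1 match on the strand opposite to the window, as the + strand is here. The match therefore did not set the Dlx6 stretch apart from those windows. Its C content was 27.6% and its G and C content 52.1%, against a median of 54.6% in the windows.

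The pairs differed in whether they held peaks at all. Dlx1 and Dlx2 on chromosome 2 (71528113 to 71546754) held 0 and 0, Dlx3 and Dlx4 on chromosome 11 (95120117 to 95146294) held 0 and 0, and Dlx6 and Dlx5 on chromosome 6 (6863334 to 6882068) held 3 and 4. Of the 6 genes 2 held a peak, and over all protein-coding genes the share with a peak was 29.1%. Both genes held at least 3 peaks, against 11.3% of all protein-coding genes, and both held a peak of at least 10-fold enrichment, against 5.65%. Counted by gene, 2 of the 6 held a peak with a −log10 q of at least 10, against 16.7% of all protein-coding genes. All 7 peaks reached that value, and the share of peaks in the whole list that did so was not computed. These shares are the background of the list, and nothing is read from them for genes chosen on the same peaks.

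**Figure D1:**
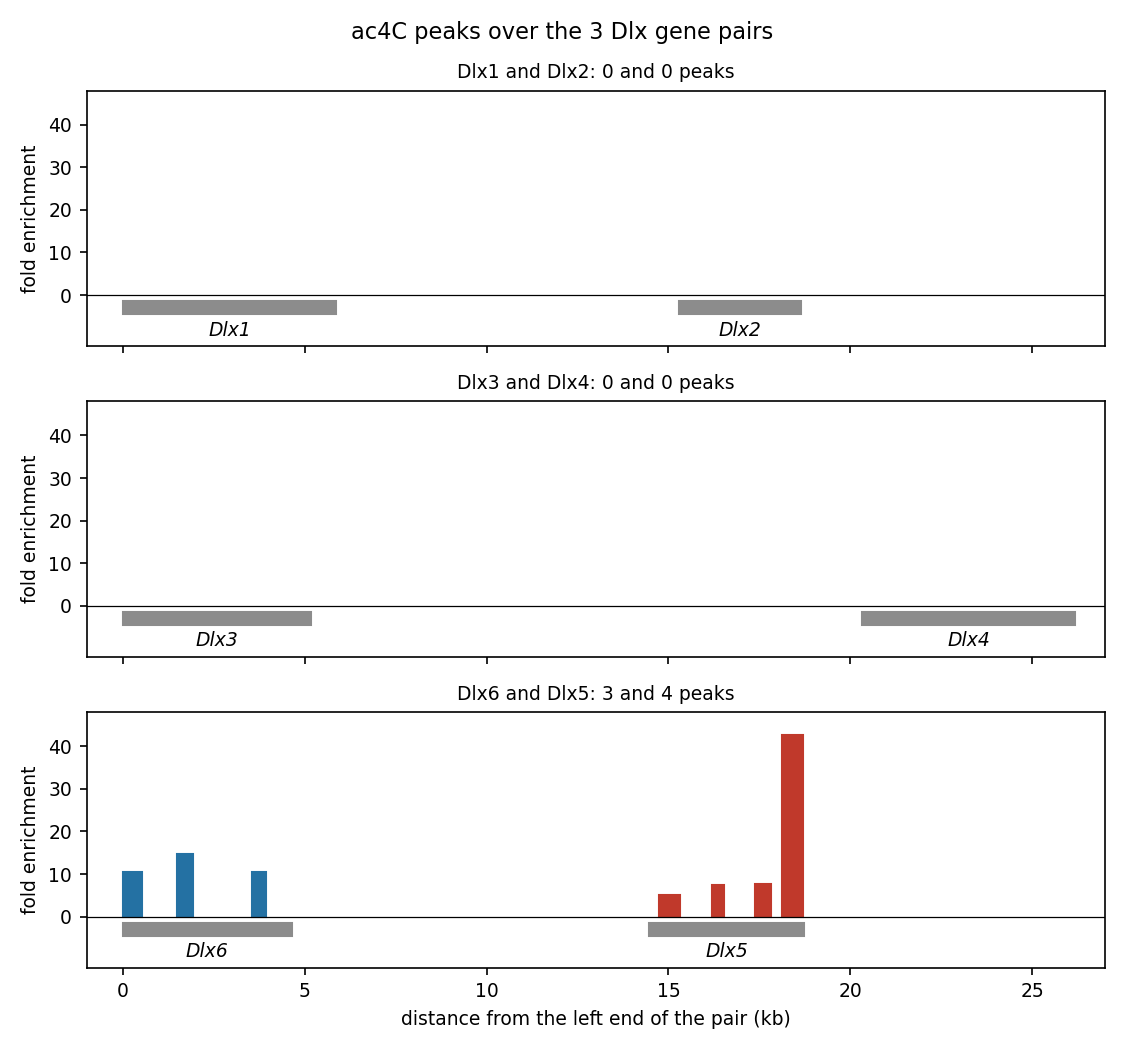
Peaks over the 3 gene pairs. The horizontal axis is the distance in kb from the left end of each pair on the chromosome, the grey boxes are the RefSeq gene spans, and each coloured bar is a peak, as wide as the peak and as high as its fold enrichment, on an axis from 0. Peaks stand only over Dlx6 (3, blue) and Dlx5 (4, red), and the bar at the outer end of Dlx5 reaches 42.6.

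Dlx5 (NCBI gene 13395) spans 4268 bases of chromosome 6, from 6877801 to 6882068. Its 4 peaks covered 1942 of those bases, or 45.5% of the span. They are numbered here in the order of the chromosome, so that peak 1 lies next to the end that faces Dlx6 and peak 4 at the outer end, where transcription starts. Exons were not told from introns, since exon positions were not used here.

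Dlx5 peak 4 (chromosome 6, 6881452 to 6882043) was 592 bases wide and ran from 25 to 616 bases from the outer end of the gene. Its fold enrichment, the authors' ratio of the summit signal to its background, was 42.6, with a 95% interval of 35.4 to 50.9. The summit held 120 fragments over a background of 1.84 fragments and lay 249 bases from the outer end, at 5.83% of the span. This was the peak with the highest fold enrichment in the family and rank 16 of the list. By −log10 q, at 162, it was rank 2 of the 21192 peaks, whereas by the number of fragments it was rank 157.

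Dlx5 peak 3 (6880709 to 6881161) was its nearest neighbour, with 290 bases between the edges of both peaks. It was 453 bases wide, and its summit lay 1044 bases from the outer end. Its fold enrichment was 7.77 (95% interval 4.77 to 12.05), on 18 fragments over a background of 1.44. The backgrounds of peaks 3 and 4 were thus close, 1.44 and 1.84 fragments, while the immunoprecipitated fragments were 18 and 120.

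Dlx5 peak 2 (6879530 to 6879860) was the narrowest of the family, at 331 bases, with its summit 2356 bases from the outer end, near the middle of the gene. Its fold enrichment was 7.32 (5.44 to 9.66), on 48 fragments over a background of 5.69. Dlx5 peak 1 (6878081 to 6878646) was 566 bases wide, with its summit 3665 bases from the outer end and 602 bases from the end that faces Dlx6. Its fold enrichment was 5.17 (4.06 to 6.49), on 72 fragments over a background of 13.1. It had the second most fragments of the family and the lowest fold enrichment, beside the highest background.

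Along Dlx5 the background was highest at the summit nearest the facing end and lower at the summits near the outer end, and the highest was 9.09 times the lowest. The intervals of peaks 1, 2 and 3 overlapped each other, so these 3 were not told apart in fold enrichment at this depth. The interval of peak 4 overlapped none of the other 6 intervals of the family. Its fold enrichment was 5.48 times that of peak 3 and 8.25 times that of peak 1.

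**Figure D2:**
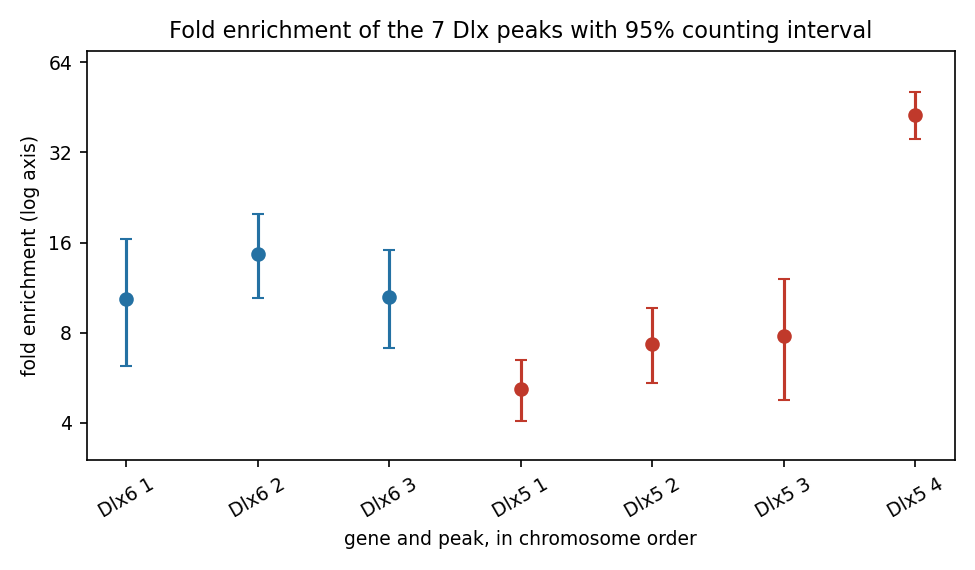
Fold enrichment of each of the 7 peaks, on a log axis, in chromosome order from Dlx6 (blue) to Dlx5 (red). Points are the authors' values from 1 peak list and bars are 95% Poisson intervals of the fragments at the summit, which cover counting error only. Dlx5 peak 4 stands at 42.6, and the other 6 peaks lie between 5.17 and 14.6.

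Dlx6 (NCBI gene 13396) spans 4637 bases, from 6863334 to 6867970, and its 3 peaks covered 29.5% of the span. Here transcription starts at the low end, so peak 1 is the one at the start. Dlx6 peak 1 (6863324 to 6863868) began just before the span, and its summit lay 99 bases inside. It was 545 bases wide, with a fold enrichment of 10.4 (6.19 to 16.5) on 16 fragments over a background of 0.639. These were the fewest fragments and the lowest background of the family.

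Dlx6 peak 2 (6864819 to 6865263), which holds the homeodomain stretch printed above, had its summit 1742 bases from the start. It was 445 bases wide, with a fold enrichment of 14.6 (10.5 to 19.96) on 38 fragments over a background of 1.66. Dlx6 peak 3 (6866869 to 6867254) was 386 bases wide, with its summit 903 bases from the end that faces Dlx5. Its fold enrichment was 10.5 (7.13 to 15.1) on 28 fragments over a background of 1.75. All 3 intervals overlapped, and the highest fold enrichment of Dlx6 was 1.41 times its lowest.

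The genes of this pair therefore differed in how the enrichment was spread. In Dlx5 a single peak at the start stood above peaks of 5.17 to 7.77, and in Dlx6 the 3 peaks lay between 10.4 and 14.6. The highest Dlx5 value was 2.91 times the highest Dlx6 value, and their intervals did not overlap. The backgrounds of these summits were 1.84 and 1.66 fragments, so the difference lay in the fragments, 120 and 38. The peak nearest the start was the highest of its gene in Dlx5. In Dlx6 peak 2 had the highest value, but the intervals do not order its peaks. With no pseudocount (described below), Dlx6 peak 1 at the start was the highest, at 25.04 against 22.8 for peak 2. The genes are therefore not told apart by which peak is highest.

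**Figure D3:**
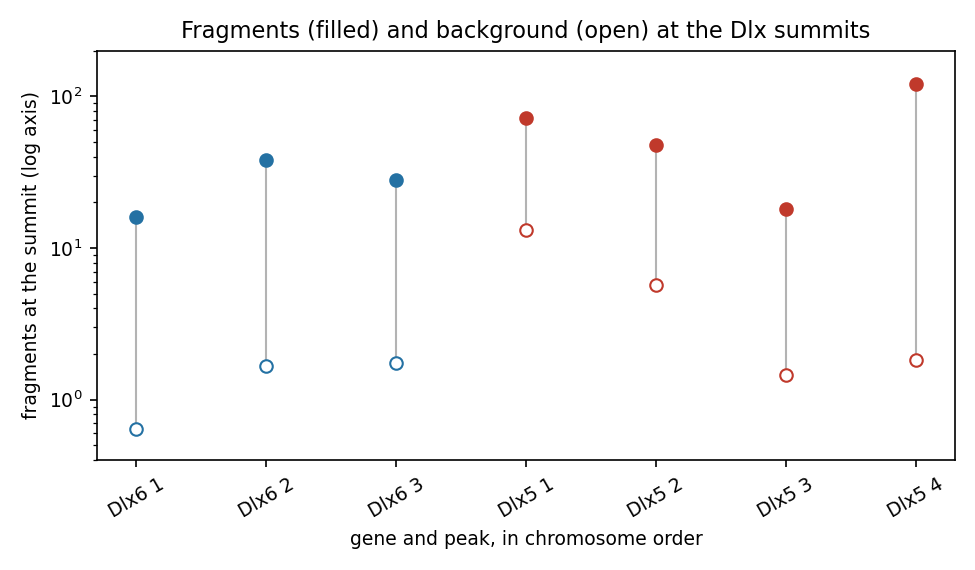
Immunoprecipitated fragments (filled) and background (open) at the summit of each of the 7 peaks, on a log axis, in chromosome order with Dlx6 in blue and Dlx5 in red. The values were recovered from the authors' fold enrichments and p-values, with 1 library behind each. The background runs from 0.639 at Dlx6 peak 1 to 13.1 at Dlx5 peak 1, and the fragments from 16 at Dlx6 peak 1 to 120 at Dlx5 peak 4.

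The Dlx5 to Dlx6 interval, 9830 bases from 6867971 to 6877800, held 0 summits, and 0 peaks touched it. The last Dlx6 peak and the first Dlx5 peak were 10826 bases apart. The other intervals were also without peaks, 9426 bases between Dlx1 and Dlx2 and 15150 bases between Dlx3 and Dlx4. The sources were polyA RNA, and a peak needs a transcript, so the list says nothing about DNA elements in these intervals.

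Non-coding genes overlap the pairs, and the list gives a strand for 0 peaks. Dlx6os1 (NCBI gene 320038) spans 51085 bases, from 6820543 to 6871627, and takes in the whole of Dlx6. Its span held 3 summits, all of them inside Dlx6, and 0 in the 46448 bases outside. Dlx6os2 (NCBI gene 13397), a shorter antisense gene, held 1 summit, that of Dlx6 peak 2. The kit keeps strand per the labels, but the peak list does not, so fragments of Dlx6 and of its antisense partners cannot be told apart at these 3 peaks. The 4 Dlx5 summits lay in no other gene of the table. Dlx1as, the antisense gene over Dlx1, Dlx4os over Dlx4, and Gm38659 between Dlx3 and Dlx4 held 0 peaks.

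No other peak was near the Dlx5 and Dlx6 pair. The nearest summit outside the pair was 821 kb from the outer end of Dlx6 and 1628 kb from the outer end of Dlx5. No peak outside the pair lay near enough to either gene for its membership to turn on the edge of the span. Among the members, Dlx6 peak 1 had the summit nearest an edge, 99 bases inside the Dlx6 span. Its membership thus rests on where that start is placed, and a narrower span was not tried. The nearest protein-coding neighbours, the proteasome subunit gene Sem1 (285 kb away) and the succinate dehydrogenase assembly gene Sdhaf3 (73.9 kb away), held 0 peaks.

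Around the pairs with no peak the surroundings differed. Metap1d, which encodes a mitochondrial methionine aminopeptidase, lay 2.92 kb from Dlx1 and held 0 peaks. Itga6, which encodes an integrin subunit that binds laminin, lay 240 kb from Dlx2 and held 1 peak, at 6.65-fold. Itga3, an integrin gene of the same kind, lay 43.3 kb from Dlx3 and held 13 peaks of up to 9.67-fold, and the tachykinin gene Tac4, 115 kb from Dlx4, held 0. The nearest summit was 253 kb from Dlx1, 241 kb from Dlx2, 43.7 kb from Dlx3 and 63.99 kb from Dlx4. Enrichment in these 4 genes was not detected at this depth. The list gives a background only at peaks, so it does not show whether their transcripts were present.

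Against the whole list, 6 of the family's 7 peaks lay above the median fold enrichment. All 7 were wider than the median peak of 315.5 bases, from percentile 53.1 of width for Dlx5 peak 2 to 83.5 for Dlx5 peak 4. In fold enrichment, whose median was 5.58, the 3 Dlx6 peaks stood at percentiles 91.1, 97.4 and 91.5. Dlx5 peaks 1, 2 and 3 stood at 41.7, 74.4 and 78.3.

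Fold enrichment falls in the list as the background rises, so each summit was also set beside peaks whose background was within a factor of 1.2 of its own. Of 2995 such peaks for Dlx5 peak 4, itself included, 0 had a higher fold enrichment, and their median was 6.27. Dlx5 peak 1, below the median of the whole list, stood at percentile 83.1 of 933 peaks at its background, whose median was 3.64. Dlx5 peaks 2 and 3 stood at percentiles 85.1 and 69.2 of their classes. The Dlx6 peaks stood at percentiles 85.6, 95.7 and 86.4.

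**Figure D4:**
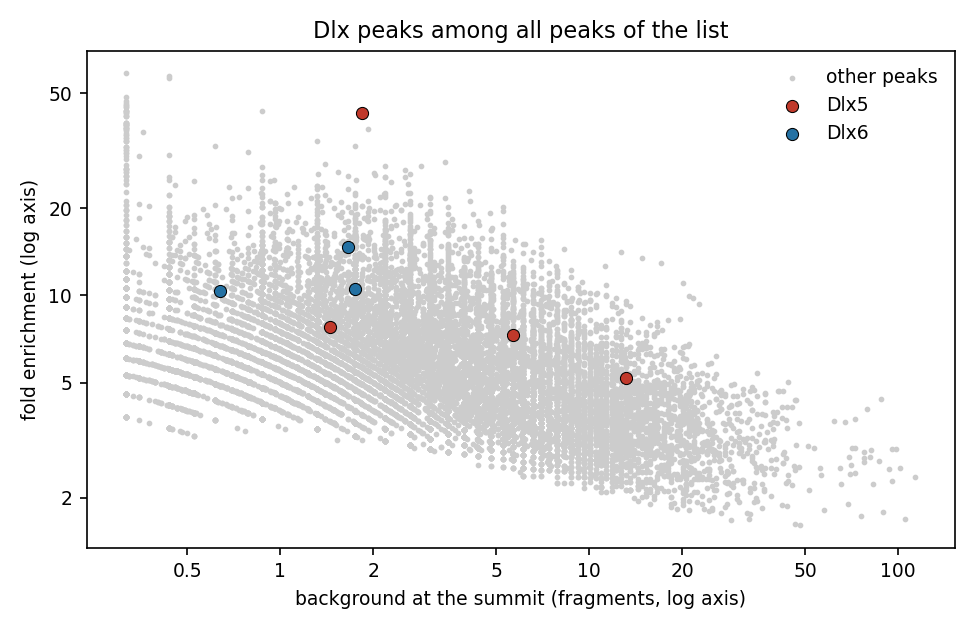
Fold enrichment against background at the summit for every peak of the list, both on log axes, with 1 point a peak. Dlx5 peaks are red, Dlx6 peaks blue and all others grey. Dlx5 peak 4 lies above all other points near its background of 1.84 fragments.

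Among the 6367 protein-coding genes with a peak, Dlx5 ranked higher by the contrast between its peaks than by their number. Its number of peaks, 4, was exceeded by 18.7% of these genes. The ratio of its highest to its second highest fold enrichment, 5.48, was rank 8 of 3739 genes with at least 2 peaks, whose median ratio was 1.27. In Dlx6 this ratio was 1.39. The genes are short, and per kb of span Dlx5 held 0.937 peaks and Dlx6 0.647, against a median of 0.0828. Of 1688 protein-coding genes within 25% of the Dlx5 span, 399 (23.6%) held a peak, 88 (5.21%) at least 3 and 30 (1.78%, 95% Wilson interval 1.25 to 2.53%) at least 4.

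Dlx6 ranked high by its lowest peak. Of 2477 genes with at least 3 peaks, it was the one whose lowest fold enrichment was highest, at 10.4. The next was Mnt, a gene for a MAX-binding repressor, at 9.98, also with 3 peaks. The median lowest peak of the 782 genes with exactly 3 peaks was 4.14. The interval of that Dlx6 peak, 6.19 to 16.5, takes in the value of Mnt. These 2 measures were chosen after the values were seen.

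The genes most like Dlx5 were sought among 1581 others with 3 to 5 peaks, by the fold enrichment of the highest peak in this 1 list. None of them lay inside the Dlx5 interval of 35.4 to 50.9. The nearest were Rsph3a, a gene for a radial spoke protein of cilia, at 34.2 with 3 peaks, Maz, a zinc finger transcription factor gene, at 28.0 with 3, and Zfp703, a transcriptional cofactor gene, at 26.2 with 4. Zfp703 was also close in span, at 4127 bases.

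A fixed list of 39 homeobox genes related to the Dlx family, from the NK-like subclass, was examined beside it. The list is not the whole subclass, and Hmx genes were not on it. A peak was found in 5 of the 38 present in the table of genes (13.2%, 95% Wilson interval 5.75 to 27.3%), against 29.1% of all protein-coding genes and 23.6% of those close to Dlx5 in span, a share inside that interval. The spans of the related genes were not matched. Counting only peaks whose −log10 q reached 10, 3 of the 38 held one, against 16.7% of all protein-coding genes. The highest was Emx2, which patterns the urogenital tract and the cortex, at 19.0 (15.02 to 23.8) on 75 fragments, with 3 peaks. Msx1, known for its part in uterine receptivity, stood at 13.6 (10.7 to 17.0) on 72 fragments, with 2 peaks. Hhex, Barx2 and Hlx followed at 7.998, 7.35 and 6.83, each with 2 peaks and with at most 16 fragments at the highest. Msx2, the partner of Msx1 in the uterus, held 0. The Dlx5 interval lay above those of Emx2 and Msx1, and the interval of the highest Dlx6 peak overlapped both. Only 3 of the 6367 protein-coding genes with a peak exceeded Dlx5 in highest fold enrichment, so lying below it is not particular to related genes.

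Genes that act upstream of Dlx genes, with them or below them in other organs formed a further list. A peak was found in 14 of its 27 members (51.9%, 33.99 to 69.3%), with a median fold enrichment at the highest peak of 9.45, against 6.64 over all genes with a peak. The share of all protein-coding genes with a peak was 29.1%. Upstream genes and partners held a peak in 10 of 15 cases (66.7%, 41.7 to 84.8%). Reported targets did so in 4 of 12 (33.3%, 13.8 to 60.9%), which is near the share over all genes. The list was chosen with earlier results of these data known, and the spans of its genes were not matched. Nothing is therefore read from these shares or from the median. The highest were Hand2, a target of Dlx5 and Dlx6 in the jaw and a progesterone-induced stromal factor of the uterus, at 17.5 (13.9 to 21.7), and Foxl2, a forkhead factor of the ovary and uterus, at 16.2 (12.1 to 21.2).

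Next were Msx1 at 13.6, Osr2, a zinc finger factor of palate and limb, at 13.5 (10.5 to 17.0), and the ligand gene Bmp7 at 11.2 (6.86 to 17.3). Bmp2, a ligand that acts upstream of Dlx5 in bone, held 2 peaks, the highest at 10.4 (6.02 to 17.0). Wnt7a, Bmp4, Trp63, Edn1, Gad1, Gad2 and Sp7 were among the 13 genes with 0 peaks. The Dlx5 interval lay above the interval of each of the 14 genes. Of all 6367 protein-coding genes with a peak, only 3 exceeded Dlx5 in highest fold enrichment. Lying below Dlx5 is therefore not particular to this list.

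**Figure D5:**
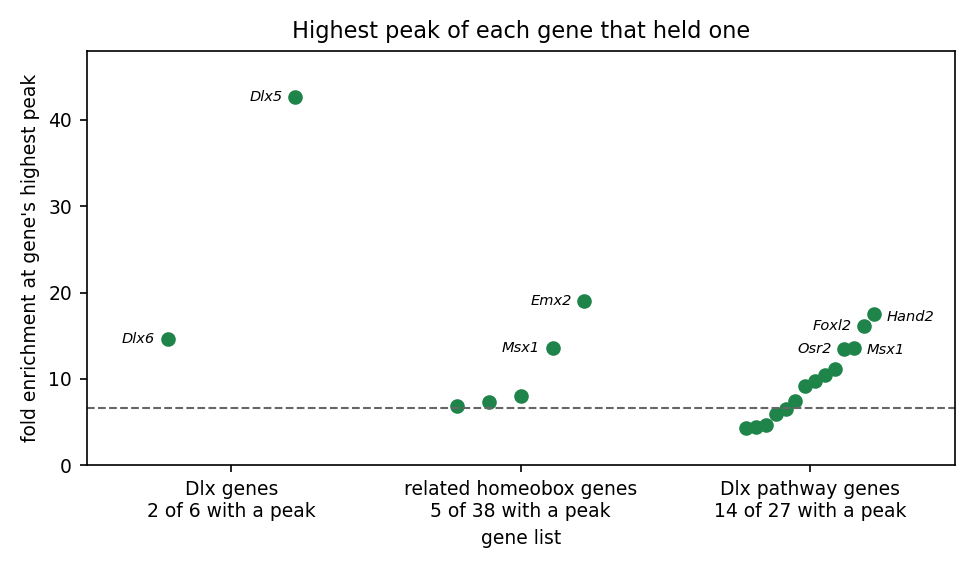
Fold enrichment at the highest peak of each gene that held one, on an axis from 0, for the Dlx genes, the related homeobox genes and the pathway genes. Each point is 1 gene from 1 peak list, genes above 12 are named, and the dashed line is the median over all protein-coding genes with a peak, 6.64. Dlx5 stands at 42.6, and the other lists reach 19.0 and 17.5.

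Marker genes of the uterus and of other places were looked up, to be read beside the 29.1% of all protein-coding genes that held a peak. A peak does not measure expression, so these counts do not test the tissue label. Peaks were held by 7 of 7 markers of uterine stroma, among them Pgr, Esr1 and Hoxa11, and by 6 of 7 of uterine epithelium, all but Epcam. They were held by 4 of 5 of myometrium, all but Tagln, by 3 of 3 of endothelium and by 1 of 3 of immune cells. Of the markers of places where Dlx genes are best known, 1 of 4 for forebrain interneurons (Lhx6) and 1 of 4 for skeleton (Runx2) held a peak, shares of 25% (4.56 to 69.9%) that are near that of all genes. Markers of the oviduct held 0 of 2, those of the blastocyst 0 of 3, and those of the ovary 2 of 5 (Foxl2 and Amh, the second at 4.16-fold on 6 fragments). In which cells of the uterus Dlx5 and Dlx6 RNA lay was not tested.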

How the data were processed

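The deposited data are 1 peak list in the 10-column narrowPeak layout. The submitters' processing notes name HISAT2 2.2.1, MACS3 3.0.0a7 and the build mm10, which is GRCm38. Settings, and whether the input served as the caller's control, were not given in the sources used here. The fold enrichment (a ratio at the summit), the −log10 of both its p-value and its q-value, and the score of each peak are the authors' deposited values. Read totals were not used here.

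Summits were placed in 49997 gene spans of RefSeq GRCm38.p6, and genes whose summits lay in 1 protein-coding gene were counted. Fragments at each summit were recovered as the whole number that fits both the fold enrichment, with a pseudocount of 1, and the Poisson p-value. The background is the value that these imply. It may be a scaled count of input fragments at the summit or an average over a wider stretch, and which of these was not known. The backgrounds of Dlx5 peaks 1 and 2 and Dlx6 peak 3 are whole multiples of 0.437721, the background at the highest Runx2 peak, as scaled counts would be. Those of the other Dlx peaks are not. Any stretch it was averaged over was not known either and may differ between peaks. A number was found for all 21192 peaks (largest relative miss 8.58e-06, next best at least 1.61e-05), and 100% of 2000 simulated peaks were recovered. The simulated peaks were made with the same formula. They show that rounding leaves the number unique, and cannot show that the caller used this formula. Intervals are 95% exact Poisson for fold enrichments, with the background taken as known, and 95% Wilson for shares. They cover counting error only, with none for the background, and PCR copies were not told from separate molecules. In the median peak, with 22 fragments, the interval ran from 64.3% to 149% of the value.

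With 1 library a group no test was run. Named were all 6 Dlx genes, their peaks, neighbours and overlapping genes, the 5 highest genes of each list with Msx1 and Msx2, and the genes most like Dlx5 by highest peak with a number of peaks within 1 of it. Others were named after their values were seen. The Dlx genes, lists and markers were chosen with earlier results of these data known. Ventx, 1 of 39 related homeobox genes listed, was not in the gene table. RefSeq promoter windows were matched for 2 of the 6 genes, Dlx1 and Dlx2, neither with a peak. Protein sequences and the sequence of the Dlx5 peaks were not analysed here. Alternatives changed the overlap rule, the span, the threshold and the pseudocount. Scripts used Python 3.11.15 with scipy 1.17.1.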

Additional observations from a re-analysis of the deposited data

How the results depend on the processing

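Of 53 values computed under alternatives, 49 stayed within 1.5 times the reported count or within the reported interval, and 4 did not. Many of the 49 could not have changed, so this total is no measure of robustness. Stricter thresholds and joining cannot add peaks to the 4 genes without peaks or to the empty interval. The summit nearest to any of those genes lay 43.7 kb away, beyond the widening of 2000 bases. With no pseudocount the highest Dlx5 value was 65.3 in place of 42.6. The highest Dlx6 value was then 25.04, at peak 1 in place of peak 2, which gave 22.8. By construction, the median over the peaks in place of the highest gave 7.55 for Dlx5. With a −log10 q of at least 10, related homeobox genes with a peak numbered 3 in place of 5, when 16.7% of all protein-coding genes held one. The numbers of peaks in Dlx6 and in the 4 genes without peaks, and the empty interval, were the same under each alternative run for them. Dlx5 kept 3 of 4 peaks when peaks under the median fold enrichment of the list were left out. No paired analysis was possible because each group held 1 library, and for the same reason no replicate could be left out. Depth limits the weaker peaks most, since Dlx6 peak 1 and Dlx5 peak 3 rest on 16 and 18 fragments.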

Other observations

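The 7 genes with a greater contrast between their highest and second highest peak than Dlx5 were Cenpb, Picalm, Lrch1, Arglu1, Gm40364, Abhd8 and Jam2, named after their values were seen. Cenpb, which encodes a centromere-binding protein, had the greatest ratio, 9.19, from a highest fold enrichment of 23.0. Of these 7 genes 5 held 2 peaks and the other two held 3, whereas Dlx5 held 4. Their second highest peaks stood at 2.04 to 6.83, below the 7.77 of Dlx5.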
